A study of Mus musculus with 4 samples.

Results

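Expression of 10 genes of apolipoproteins and very low density lipoprotein (VLDL) assembly was described in the livers of ob/ob mice: Apoa1, Apoa2, Apoa4, Apoa5, Apob, Apoc1, Apoc2, Apoc3, Apoe and Mttp. The genes were taken by symbol, and all 10 were found among the 24346 symbols of the tables. The mice were male and of the obese, leptin-deficient ob/ob genotype, aged 6 weeks when the diets began, which were fed for 4 weeks. The CD group received a regular chow containing corn oil, with added cholesterol, and the WD group a high fat diet based on cocoa butter with more sucrose. Cholesterol made up 1% of all diets, and the CD+7KC and WD+7KC groups received the same diets with 0.01% 7-ketocholesterol (7KC), an oxidation product of cholesterol. All groups therefore carried the leptin defect and ate cholesterol, and wild-type mice and diets without added cholesterol were not analysed here.

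Apolipoproteins are the protein coat of lipoprotein particles, and the liver is the main source of most of them. In hepatocytes, the microsomal triglyceride transfer protein encoded by Mttp loads lipid onto ApoB in the endoplasmic reticulum, and the resulting VLDL particle carries triglyceride into the blood. The small exchangeable apolipoproteins move between VLDL, chylomicron remnants and high density lipoprotein (HDL), where they activate or inhibit lipoprotein lipase and steer uptake by receptors. The study asked if dietary 7KC acts on fat accumulation, inflammation and scarring in the livers of obese mice, and VLDL secretion is the route by which the liver exports triglyceride.

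With 1 library per group, differences between groups could not be checked against replicates, and p-values are not given. Levels are FPKM values, that is, mapped fragments scaled by transcript length and by library size. The number of mice behind a library is not given in the sources used here. The FPKM values summed to between 602059 (WD+7KC) and 715605 (CD), and the steps between low values correspond to an estimated 9400000 to 12100000 mapped fragments per library. The 8 secreted hepatocyte proteins used to check the tissue, among them albumin, were abundant in every library, with sums of 53791 to 64028 FPKM. Fewer cells of a type and less RNA per cell cannot be told apart in such bulk samples.

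The members sit in a pair of gene clusters and at 3 other loci (GRCm38). On chromosome 9, Apoa1 (46228580 to 46230466), Apoc3 (46232933 to 46235636, reverse strand), Apoa4 (46240696 to 46243459) and Apoa5 (46268633 to 46271919) lie within 43.3 kb. On chromosome 7, Apoc2 (19671579 to 19677941), Apoc1 (19689481 to 19692660) and Apoe (19696109 to 19699188) lie within 27.6 kb on the reverse strand. Apoa2 is on chromosome 1 (171225054 to 171226379), Apob on chromosome 12 (7977648 to 8016835) and Mttp on the reverse strand of chromosome 3 (138089854 to 138144968). Several annotated genes overlap members. Gm44805, a read-through gene on the same strand, shares 6358 bases with Apoc2, and genes on the opposite strand overlap Apoa4, Apoa5 and Mttp. The counting of strand is not given in the sources used here, so a share of those levels may belong to the overlapping genes. Of these neighbours, Trmt10a is listed in the tables under its symbol, at 1.10 to 1.62 FPKM.

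The DNA directly upstream of 4 members is shown because Apoa4, Apoa1 and Apoa2 had, with Apoc1, the widest ranges between libraries in the deposited FPKM values and because Apob encodes the backbone of VLDL. The sequences are from RefSeq (GRCm38.p6), on the forward strand, and end at the base before the start of the gene annotation. Capitals mark matches to the motifs searched on both strands, and Apoa1 had no match.
Apoa1 (chr9:46228380-46228579): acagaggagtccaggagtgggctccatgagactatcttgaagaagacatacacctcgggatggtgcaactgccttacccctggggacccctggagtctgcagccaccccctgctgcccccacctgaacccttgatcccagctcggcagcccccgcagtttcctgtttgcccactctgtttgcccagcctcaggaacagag
Apoa4 (chr9:46240594-46240695): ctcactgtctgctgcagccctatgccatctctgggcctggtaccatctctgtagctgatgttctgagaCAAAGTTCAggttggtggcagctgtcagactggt
Apoa2 (chr1:171224804-171225053): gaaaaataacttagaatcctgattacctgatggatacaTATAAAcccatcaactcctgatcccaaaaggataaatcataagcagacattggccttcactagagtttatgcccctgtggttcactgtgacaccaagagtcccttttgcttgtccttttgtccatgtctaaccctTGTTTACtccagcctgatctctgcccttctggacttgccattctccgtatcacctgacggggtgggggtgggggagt
Apob (chr12:7977427-7977647): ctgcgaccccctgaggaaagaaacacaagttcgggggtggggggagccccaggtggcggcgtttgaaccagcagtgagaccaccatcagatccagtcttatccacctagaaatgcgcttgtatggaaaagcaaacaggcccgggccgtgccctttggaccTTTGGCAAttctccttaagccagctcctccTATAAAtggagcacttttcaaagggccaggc

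The Apoa4 window held a relaxed form of the HNF4 motif (CAAAGTNCA) 34 bases before the annotated start, and this form occurs in 1.19% of the 32851 RefSeq promoter windows of 250 bases. The Apoa2 window held the FOXA motif TGTTTAC (3.17% of all windows) 77 bases before the annotated start and the TATA box letters TATAAA (12.4%) 212 bases before it. The Apob window held TATAAA 31 bases before the annotated start and a C/EBP-type motif (TTNNGCAA, 9.56%). The shares are for windows of 250 bases, while those shown have 200 bases for Apoa1, 102 for Apoa4 and 221 for Apob. The stricter HNF4 letters CAAAGTCCA and the sterol response letters TCACNCCAC were in none of the windows of the 8 members that had an entry. A match is a description of these letters and no evidence of binding.

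The members were among the most abundant transcripts of the liver. Together the 10 genes made up 14.5% of the summed FPKM under CD and 13.4% with 7KC added, and 13.3% under WD and 11.8% with 7KC added, and 6 of them were among the 20 genes of highest mean FPKM. Apoa2, Apoe and Apoc1 were the most abundant, at 12154 FPKM or more in every library. Apoa1, Apoc3 and Apoa4 followed at 1797 to 8322 FPKM and Apoc2 at 1548 to 2194 FPKM. Apoa5 was at 489 to 788 FPKM, Apob at 415 to 480 FPKM and Mttp, the lowest, at 87.3 to 102 FPKM. Even Mttp rested on an estimated 3220 to 4210 reads per library, so that counting error was small for every member and the missing spread between mice is the main limit. FPKM corrects for transcript length, but the RefSeq mRNAs of Apoa2, Apoc1, Apoc2 and Apoc3 have only 432 to 727 bases, and their level relative to long genes such as Apob (13934 bases) depends on how the effective length was computed.

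**Figure D1:**
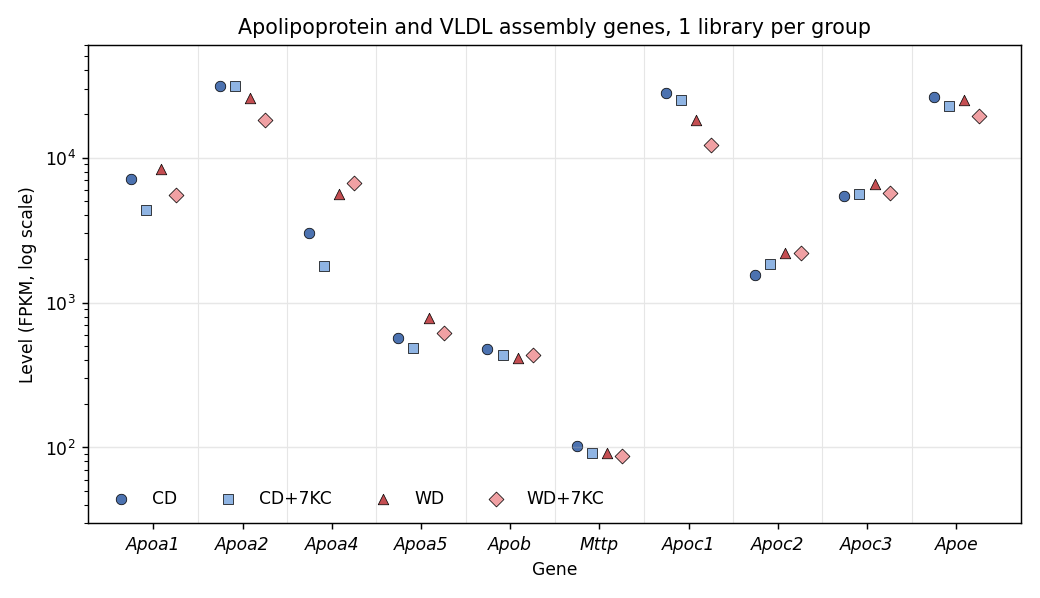
Level of the 10 genes (x axis) in FPKM on a log scale (y axis), with 1 point per library and no error bars, since each group had 1 library. Apoa4 spans the widest range, from 1797 FPKM in CD+7KC to 6673 FPKM in WD+7KC, while the 4 points of Apob lie between 415 and 480 FPKM.

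Changes were computed as the log2 ratio of FPKM + 0.1. In CD+7KC relative to CD, 8 members were lower and 2 higher, with a median log2 fold change of -0.15, against -0.0012 over all 15684 genes tested. In WD+7KC relative to WD, 7 members were lower and 3 higher, with a median of -0.28, against 0.0021 over 15753 genes. With the deposited values, highly expressed genes as a whole were lower in WD+7KC, and the 879 genes averaging 100 FPKM or more had a median of -0.21. Among these 879 are microRNA entries with extreme changes, such as Mir677 (14.8 with 7KC under CD) and Mir1306 (-14.2 with 7KC under WD). Such entries are part of the shares and ranks given for this set. The directions of the members depended on the scaling. Rescaling to equal sums (TPM) moved the median of all genes by 0.20 in WD+7KC relative to WD. The member medians were then -0.11 under CD and -0.060 under WD, and 5 members were lower and 5 higher under WD. After this rescaling the medians over all genes were 0.034 under CD and 0.21 under WD. Those of the 879 highly expressed genes were 0.032 and 0.0065. Scaling to the secreted hepatocyte proteins gave member medians of 0.014 under CD and -0.025 under WD, against 0.16 and 0.24 over all genes. A rescaling moves members and other genes alike, and the member medians stayed below those of all genes under both of these scalings.

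With 7KC, no member passed a log2 fold change of 1 under either diet, where 6.75% of all genes tested did so under CD and 9.00% under WD. At a lower threshold of 1.5-fold in either direction, 2 members (Apoa1 and Apoa4, both lower) passed in CD+7KC relative to CD, beside 17.5% of all genes and 3.87% of genes with at least 100 FPKM. In WD+7KC relative to WD, 1 member (Apoa1, lower) passed it, beside 21.0% of all genes and 5.23% of genes with at least 100 FPKM. In WD relative to CD no member passed 1, beside 9.69% of all genes, and Apoa4 (higher) and Apoc1 (lower) passed 1.5-fold, beside 24.2% of all genes and 11.6% of genes with at least 100 FPKM. In WD+7KC relative to CD+7KC, Apoa4 (higher) and Apoc1 (lower) passed 1, beside 12.6% of all genes, and at 1.5-fold Apoa2 (lower) joined them, beside 28.9% of all genes and 19.2% of genes with at least 100 FPKM. The calls at 1.5-fold depended on the scaling: that of Apoa1 under WD was lost under 4 of 5 other scalings (-0.56 to -0.35), those of Apoa1 and Apoa4 under CD when libraries were scaled to the secreted hepatocyte proteins (-0.54 and -0.58), and that of Apoa2 under 2 of them (-0.58 and -0.56). Apoc1 was past 1 in WD+7KC relative to CD+7KC with the deposited values, but not after rescaling to equal sums (-0.83) or without the 20 highest genes (-0.85). Without 7KC the median of the members between the diets was 0.081 and with 7KC it was 0.0019, while the median over all genes was 0.0097 and 0.0026. Comparisons of the diets and of 7KC share libraries and are not independent of each other.

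**Figure D2:**
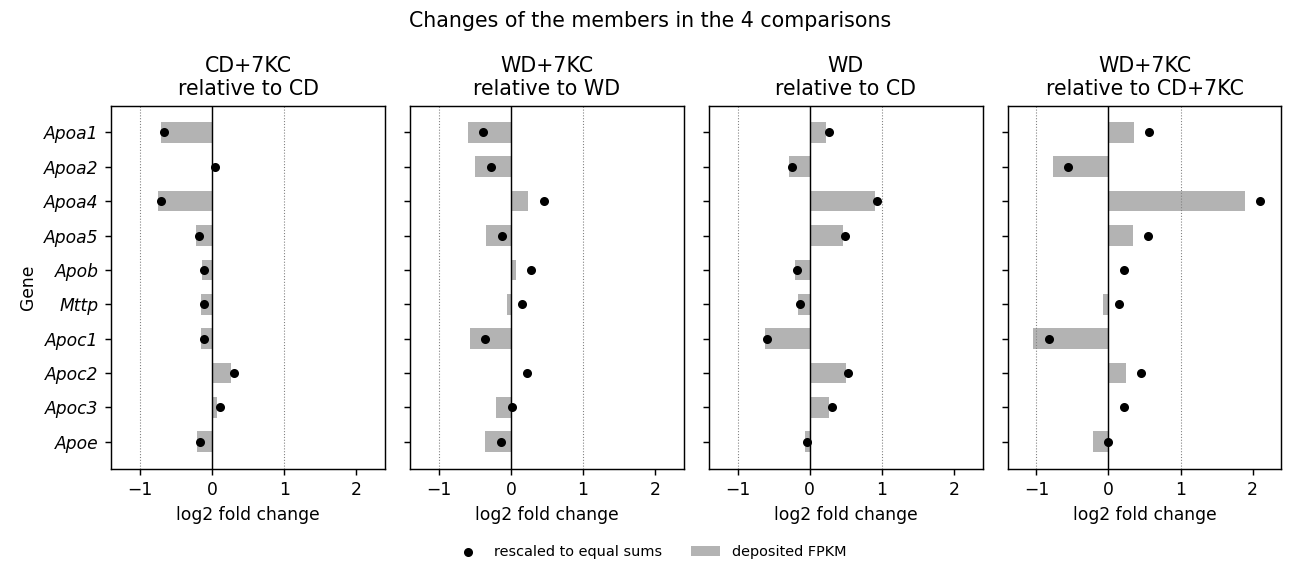
Log2 fold change (x axis) of each gene (y axis) in the 4 comparisons, as grey bars for the deposited FPKM values and black points after rescaling to equal sums, with dotted lines at -1 and 1. Apoa1 lies below 0 in both 7KC comparisons, and Apoa4 changes from -0.75 under CD to 0.24 under WD.

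Of the A group, Apoa1 encodes the main protein of HDL. It was at 7081 FPKM under CD and 4322 FPKM with 7KC added, and at 8322 FPKM under WD and 5501 FPKM with 7KC added. Both libraries with 7KC were thus lower than both libraries without it, but the share of all genes with this order was not counted. The log2 fold change with 7KC was -0.71 under CD (95% counting interval -0.73 to -0.69) and -0.60 under WD (-0.61 to -0.58), and these intervals cover counting error only. Under 5 other scalings it stayed lower, from -0.71 to -0.54 under CD and from -0.60 to -0.35 under WD. Of the 879 genes with at least 100 FPKM, 11 were as low or lower under CD and 34 under WD, Apoa1 included. The 11 include microRNA entries such as Mir6921 (-14.0).

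Apoa2 encodes another structural protein of HDL. Its levels were 31252 FPKM under CD and 31146 FPKM with 7KC added, and 25732 FPKM under WD and 18221 FPKM with 7KC added. It differed little between the CD libraries and was lowest in WD+7KC. The log2 fold change with 7KC was -0.0049 under CD (counting interval -0.017 to 0.0072) and -0.50 under WD (-0.51 to -0.48), or 0.035 and -0.28 after rescaling to equal sums. The ratio of Apoa1 to Apoa2, which does not depend on the scaling of a library, was 0.227 under CD and 0.139 with 7KC added, and 0.323 under WD and 0.302 with 7KC added.

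Apoa4 encodes an apolipoprotein of chylomicrons, VLDL and HDL that is best known from the intestine and is also made by mouse liver. It was at 3014 FPKM under CD and 1797 FPKM with 7KC added, and at 5653 FPKM under WD and 6673 FPKM with 7KC added. Both WD libraries were higher than both CD libraries, and 7KC went with a lower level under CD and a higher level under WD. The share of all genes that separate by diet in this way was not counted. The log2 difference of WD from CD was 0.91 (counting interval 0.89 to 0.92), and that of WD+7KC from CD+7KC was 1.89 (1.88 to 1.91). With 7KC it was -0.75 under CD (-0.77 to -0.73) and 0.24 under WD (0.23 to 0.25). The difference between these 7KC changes was 0.99, and 0.99 to 1.16 over 5 other scalings, but without replicates it could not be tested. Only 5 of the 879 genes with at least 100 FPKM were as high or higher in WD+7KC relative to CD+7KC, Apoa4 and the microRNA entry Mir425 (12.4) included. Of 8 markers of intestinal epithelium, Alpi, Cdx1 and Cdx2 were listed at 0 in all libraries, and Vil1 was at 0.16 FPKM or less. Muc2 was at 0.013 FPKM or less, Slc5a1 at 0.39 to 0.54 FPKM and Lgals4 at 5.30 to 7.36 FPKM. Fabp2, which hepatocytes also express, made up most of the summed level of that list (215 to 296 FPKM).

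Apoa5 encodes a minor apolipoprotein that promotes the action of lipoprotein lipase. It was at 571 FPKM under CD and 489 FPKM with 7KC added, and at 788 FPKM under WD and 619 FPKM with 7KC added. As with Apoa1, each library with 7KC was lower than its control library, and WD was the highest. With 7KC the log2 fold change was -0.22 under CD and -0.35 under WD, and under 5 other scalings it ranged up to -0.056 and -0.095. Under WD, 186 of the 879 highly expressed genes were as low or lower.

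Apob encodes the backbone of VLDL. Its log2 range over the 4 libraries was 0.21 with the deposited values, the narrowest of the members, but 0.28 after rescaling to equal sums, where Mttp (0.16) and Apoe (0.18) were narrower. Its levels were 480 FPKM under CD and 434 FPKM with 7KC added, and 415 FPKM under WD and 435 FPKM with 7KC added, a ratio of 1.16 between the highest and the lowest library. With 7KC the log2 fold change was -0.15 under CD (counting interval -0.16 to -0.13) and 0.066 under WD (0.050 to 0.082). The first became 0.022 when libraries were scaled to the secreted hepatocyte proteins, and the second was up to 0.32 under that scaling. Mttp, which encodes the protein that loads lipid onto ApoB, was at 102 FPKM under CD and 91.6 FPKM with 7KC added, and at 91.0 FPKM under WD and 87.3 FPKM with 7KC added. Its log2 fold change with 7KC was -0.15 under CD and -0.060 under WD, and both changed sign under another scaling, reaching 0.013 under CD and 0.19 under WD. The ratio of Apob to Mttp stayed between 4.56 (WD) and 4.98 (WD+7KC), with 4.71 in CD and 4.74 in CD+7KC.

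Of the C group, Apoc1 encodes a small apolipoprotein of HDL and VLDL that hinders receptor-mediated uptake. It was at 27820 FPKM under CD and 25009 FPKM with 7KC added, and at 18088 FPKM under WD and 12154 FPKM with 7KC added. Both WD libraries were thus below both CD libraries, and the share of all genes with this order was not counted. The log2 fold change was -0.62 in WD relative to CD and -1.04 in WD+7KC relative to CD+7KC, and after rescaling to equal sums these were -0.59 and -0.83. With 7KC it was -0.15 under CD, which became 0.014 when libraries were scaled to the secreted hepatocyte proteins, and -0.57 under WD (-0.36 after rescaling to equal sums). Of the 879 highly expressed genes, 39 were as low or lower under WD with 7KC, Apoc1 included.

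Apoc2 encodes the cofactor that activates lipoprotein lipase, and Apoc3 encodes an inhibitor of that lipase and of particle uptake. Apoc2 was at 1548 FPKM under CD and 1858 FPKM with 7KC added, and at 2194 FPKM under WD and again 2194 FPKM with 7KC added. It was lowest in CD, with a log2 fold change of 0.26 with 7KC under CD and 0.50 in WD relative to CD. Apoc3 was at 5417 FPKM under CD and 5660 FPKM with 7KC added, and at 6533 FPKM under WD and 5664 FPKM with 7KC added. Its log2 fold change with 7KC was 0.063 under CD and -0.21 under WD, and the latter was 0.011 after rescaling to equal sums. The ratio of Apoc2 to Apoc3 was 0.286 under CD and 0.328 with 7KC added, and 0.336 under WD and 0.387 with 7KC added, so that it was higher with 7KC under both diets, by a log2 ratio of 0.20 under CD and 0.21 under WD. Its spread between mice is not known.

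Apoe encodes the ligand by which remnant particles bind their receptors on hepatocytes, and it is made by hepatocytes and macrophages. It was at 26255 FPKM under CD and 22630 FPKM with 7KC added, and at 24993 FPKM under WD and 19502 FPKM with 7KC added. With 7KC the log2 fold change was -0.21 under CD and -0.36 under WD, and relative to albumin Apoe changed by -0.045 under CD and -0.096 under WD on the log2 scale. The summed level of 10 macrophage markers moved in the other direction, with 153 FPKM under CD and 244 FPKM with 7KC added, and 256 FPKM under WD and 513 FPKM with 7KC added, and all 10 were higher with 7KC under each diet. Markers of endothelial cells were also higher in WD+7KC than in WD (5 of 5 past a log2 fold change of 1, from a sum of 39.5 to 109 FPKM). Beside them, 9.00% of all genes and 1.43% of genes averaging 10 FPKM or more passed 1. In CD+7KC relative to CD, 4 endothelial markers were higher and 1 lower (Lyve1, -0.46), none passed 1, and the sum went from 49.4 to 73.6 FPKM. The part of these cells in the levels of Apoe, Apoc1 and Apoc2 was not tested. The ratio of Apoc1 to Apoe, which are neighbours on chromosome 7, was 1.06 under CD and 1.11 with 7KC added, and 0.724 under WD and 0.623 with 7KC added.

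**Figure D3:**
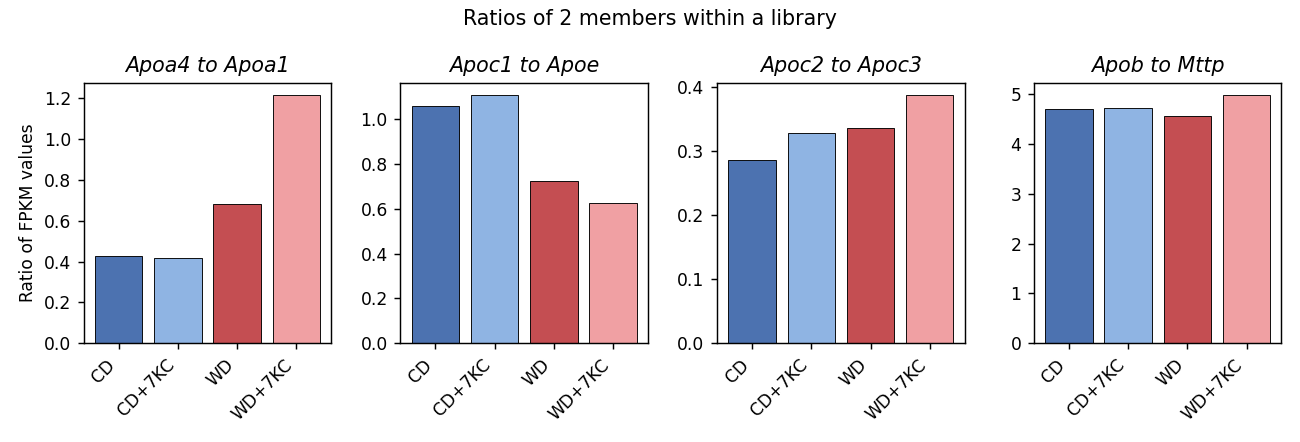
Ratio of FPKM values of 2 members within a library (y axis) in the 4 groups (x axis), with bars that start at 0 and no error bars, since each group had 1 library. Apoa4 to Apoa1 spans 0.416 to 1.21, Apoc1 to Apoe is lower in both WD libraries, and Apob to Mttp stays between 4.56 and 4.98.

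The 7KC changes of the members under CD and under WD rest on separate pairs of libraries. Apoa1, Apoa5 and Apoe were lower with 7KC in both pairs, and they stayed lower under 5 other scalings. Apoc1, Apoa2 and Mttp were also lower in both pairs with the deposited values, but Apoa2 hardly differed under CD and all of these changed sign there under another scaling. The 879 genes averaging 100 FPKM or more had medians of -0.0064 under CD and -0.21 under WD, or 0.032 and 0.0065 after rescaling to equal sums. How many of them were lower in both pairs was not counted. Apoa4 was lower under CD and higher under WD under every scaling run. Apob had the same signs and Apoc3 the opposite ones with the deposited values, but the sign of Apob under CD and of Apoc3 under WD turned when libraries were scaled to the secreted hepatocyte proteins. For Apoa2 and Apoc1 the change under WD was lower than that under CD by 0.49 and 0.42 on the log2 scale, and after rescaling to equal sums these differences were -0.32 and -0.24.

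**Figure D4:**
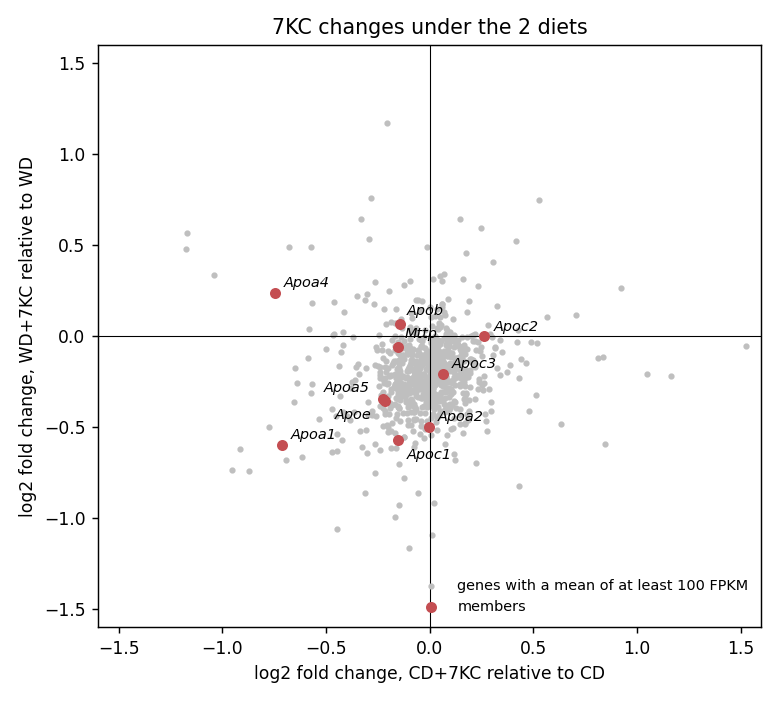
Log2 fold change with 7KC under WD (y axis) against that under CD (x axis) for the 10 members (red) and the 879 genes averaging 100 FPKM or more (grey), of which 13 lie beyond the axes at 1.6. Apoa1 lies at -0.71 and -0.60, Apoa4 at -0.75 and 0.24, and most grey points lie below 0 on the y axis.

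Members of the same cluster had different changes. On chromosome 9, the starts of Apoa1 and Apoa4 are 12.1 kb apart, and their ratio (Apoa4 to Apoa1) was 0.426 under CD and 0.416 with 7KC added, and 0.679 under WD and 1.21 with 7KC added. The pair thus kept its proportion when 7KC was added to CD, and Apoa4 exceeded Apoa1 in WD+7KC only. Apoc3, which lies between them, changed less than either of them with 7KC. All 4 members of this cluster were higher in WD than in CD, by 0.23 to 0.91 on the log2 scale, and this held under 5 other scalings. On chromosome 7, Apoc2 was higher and Apoc1 and Apoe were lower in WD than in CD.

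**Figure D5:**
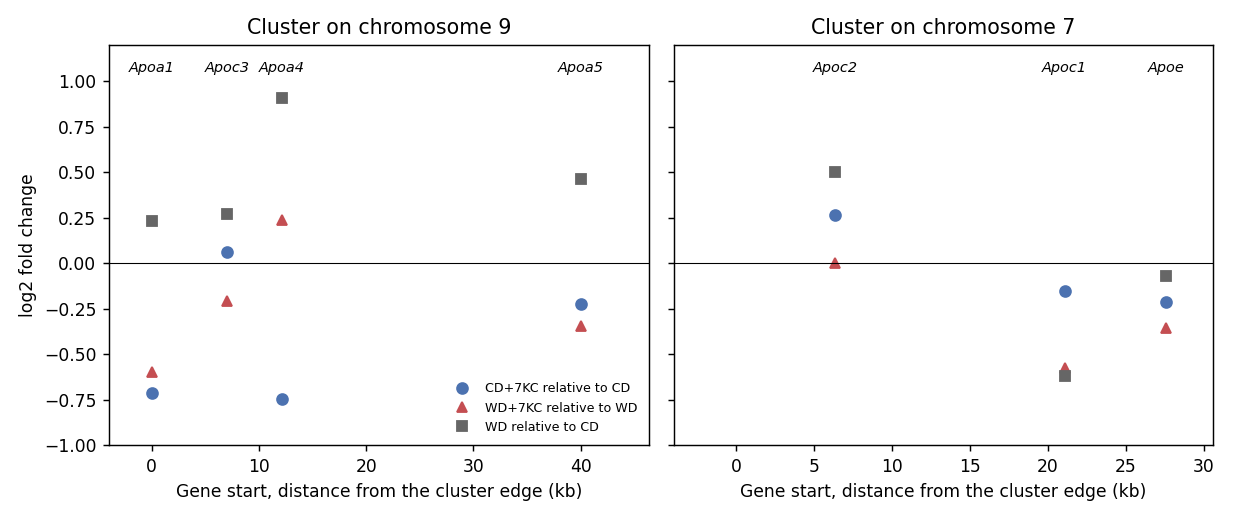
Log2 fold change (y axis) of the clustered members against the distance of their start from the cluster edge in kb (x axis), for 7KC under each diet and for WD relative to CD. In the cluster on chromosome 9 all squares lie above 0, between 0.23 and 0.91, while the 7KC changes of Apoa1 and Apoa4 under WD lie at -0.60 and 0.24.

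The other genes of the pathway mostly stayed under a log2 fold change of 1, as did most genes. With 7KC, 1.18% of genes averaging 10 FPKM or more passed 1 under CD and 1.43% under WD (6.75% and 9.00% of all genes). Between the diets the shares were 2.93% without 7KC and 5.50% with it (9.69% and 12.6% of all genes). The same shares stand beside the lists below. Of 10 other apolipoproteins, none passed 1 with 7KC under either diet. Saa4, which encodes a constitutive serum amyloid A of HDL, passed 1 in WD+7KC relative to CD+7KC with -1.22. It was at 145 FPKM under CD and 162 FPKM with 7KC added, and at 101 FPKM under WD and 69.6 FPKM with 7KC added. Saa2, an acute-phase form that is nearly identical to Saa1 so that reads may be shared, had the largest 7KC change under CD with -0.57. Apoc4, the neighbour of Apoc2, was at 2071 FPKM under CD and 1946 FPKM with 7KC added, and at 2410 FPKM under WD and 1720 FPKM with 7KC added. It was the most abundant gene of this list, and it is named here after its values were seen.

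None of the 19 VLDL loading and secretion factors passed 1 in any of the 4 comparisons. Their median was -0.082 with 7KC under CD (4 higher, 15 lower) and -0.14 under WD (2 higher, 17 lower). Genes averaging 10 FPKM or more had medians of -0.014 and -0.12, so the list was near this background under WD. After rescaling to equal sums the list medians were -0.043 under CD and 0.074 under WD, where most of the factors were then higher. Sort1, which encodes the sorting receptor sortilin, had the largest 7KC change under CD, from 2.28 FPKM without to 1.46 FPKM with 7KC. Smlr1 had the largest under WD with the deposited values, from 72.4 FPKM without to 49.6 FPKM with 7KC, and was also lower in CD+7KC (54.5 FPKM) than in CD (81.7 FPKM). After rescaling to equal sums the change of Smlr1 under WD was -0.33, and that of Tm6sf2 was larger in size, with 0.34. Of 4 genes of ApoB mRNA editing, none passed 1. Apobec1, the deaminase that converts the ApoB-100 message to ApoB-48, was at 6.10 FPKM under CD and 5.10 FPKM with 7KC added, and at 6.48 FPKM under WD and 8.92 FPKM with 7KC added. Editing itself cannot be read from these values.

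Of 19 regulators of apolipoprotein transcription, none passed 1 with 7KC under either diet. Their median was -0.071 under CD and -0.17 under WD, or -0.032 and 0.035 after rescaling to equal sums. With the deposited values, genes averaging 10 FPKM or more had medians of -0.014 and -0.12. Cebpb, a liver-enriched factor of the acute-phase response, had the largest 7KC change under WD with the deposited values, with -0.50, and -0.54 under CD. Its levels were 110 FPKM under CD and 75.5 FPKM with 7KC added, and 79.2 FPKM under WD and 56.1 FPKM with 7KC added. After rescaling to equal sums the change of Cebpb under WD was -0.28, and the largest of the list was then that of Foxa2, with 0.59. Ppargc1b, a coactivator listed at 0.64 to 1.52 FPKM, had the largest change under CD with 0.70 and passed 1 in WD+7KC relative to CD+7KC with -1.13, but not after rescaling to equal sums (-0.94). Mlxipl, which encodes the carbohydrate response factor ChREBP, passed 1 between the diets. It was at 51.0 FPKM under CD and 63.2 FPKM with 7KC added, and at 22.4 FPKM under WD and 22.9 FPKM with 7KC added. Hnf4a and Creb3l3, named after their values were seen because their products are known activators of these genes, had 7KC changes of -0.20 and 0.073 under CD and -0.17 and -0.18 under WD. The changes under WD turned sign after rescaling to equal sums, to 0.042 and 0.035.

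Of the 13 genes of lipase control and particle uptake found in the tables, Gpihbp1 passed 1 with 7KC under WD. It encodes the endothelial anchor of lipoprotein lipase and was at 21.5 FPKM under CD and 33.0 FPKM with 7KC added, and at 17.4 FPKM under WD and 35.7 FPKM with 7KC added, and the endothelial markers were higher in the same library. Between CD+7KC and WD+7KC, Lpl, the lipase itself, was at 14.7 and 34.6 FPKM (log2 fold change 1.23). Lipc, the hepatic lipase, was at 86.6 and 37.8 FPKM (-1.20, or -0.99 and no longer past 1 after rescaling to equal sums).

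Genes with a profile most like that of the members were sought among 4661 other genes averaging 10 FPKM or more, by the distance between centred log2 levels over the 4 libraries. The median profile of the 10 members was nearest to Coq5, Nop10, Rpl22, Psma2 and Ndufa13, with distances of 0.086 to 0.091. The profile of Apoa4, the member of widest range, was nearest to Rpl34, Ndufs5, Cgref1, Nid1 and Hist1h1c, with distances of 0.23 to 0.36. Rpl34 was at 11.7 FPKM under CD and 6.85 FPKM with 7KC added, and at 18.0 FPKM under WD and 24.0 FPKM with 7KC added, and as a ribosomal protein gene it has processed copies that may share its reads. With only 4 libraries, many genes can follow a similar order.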

How the data were processed

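Liver RNA was sequenced in 1 library per diet (CD or WD, each without or with 7KC). From stranded mRNA libraries, the authors mapped 75-base single-end reads to mm10 with TopHat2 2.0.13, Bowtie2 2.2.3 and SAMtools 0.1.19, computed FPKM values with Cufflinks 2.2.1 and deposited these FPKM values by gene symbol. The annotation and the Cufflinks options are not given in the sources used here.

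Log2 fold changes were computed from FPKM + 0.1 for genes not listed at 0 in both libraries of a comparison, with thresholds of 1 and of 1.5-fold. No test was run, since each group had 1 library. Mapped fragments were estimated by fitting whole reads to low FPKM values, for genes that have only 1 RefSeq mRNA (GENCODE vM21, transcript length minus 200 bases). Of the low values, 71.3 to 72.4% lay within 0.1 of a whole read. Exact (Clopper-Pearson) 95% counting intervals rest on these estimates and on the longest RefSeq mRNA, and cover counting error only. For Apoa5, Apoc1, Apoc2, Apoc3, Apoe and Mttp, which have several mRNAs, intervals are not given.

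The members and the 13 other gene lists were chosen with earlier results of these data known. Genes named from the pathway lists were those past 1 averaging 1 FPKM or more, or else those with the largest 7KC change. Those said to be named after their values were seen are apart from this rule. For the cell type markers mainly levels, sums and counts are given, and not every marker past 1 is named. Alternatives were other pseudocounts, 5 other scalings and the lower threshold. The genes averaging 100 FPKM or more were added as a background after the values had been seen. Markers of adipocytes, cholangiocytes, stellate cells and red blood cells were also listed. Of the adipocyte markers, Plin1 and Adipoq were at 0 to 0.088 FPKM, Fabp4 at 66.5 to 143 FPKM, Cidec at 115 to 202 FPKM and Car3 at 778 to 3466 FPKM. Of the cholangiocyte markers, Krt7, Krt19, Epcam and Sox9 were at 0.40 to 1.09 FPKM and Spp1 at 43.7 to 183 FPKM, with a log2 fold change of -1.17 with 7KC under CD and 0.56 under WD. The part of these cells in the levels of the members was not tested. The 6 stellate cell markers summed to 143 to 183 FPKM and the 4 red blood cell genes found to 104 to 191 FPKM. These sums hide changes of single markers. Dcn made up most of the stellate sum (118 to 145 FPKM), while Col1a1 was at 8.23 FPKM under CD and 3.40 FPKM with 7KC added, and at 7.86 and 9.52 FPKM under WD. Between CD and WD, Hbb-bs went from 0.0060 to 13.5 FPKM and Alas2 from 86.5 to 30.9 FPKM, with 2 red blood cell genes higher and 2 lower. The code was tested on simulated data. Python 3.11.15, numpy 2.4.6, pandas 2.3.3, scipy 1.17.1 and matplotlib 3.10.9 were used.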

Additional observations from a re-analysis of the deposited data

Results flagged for a closer look

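The 7KC change of 3 members had opposite signs under the 2 diets. The difference (log2 fold change under WD minus that under CD) was 0.99 for Apoa4, 0.21 for Apob and -0.27 for Apoc3. With 1 library per group these differences were not tested. The opposite signs held for Apoa4 under the 5 other scalings. For Apob the change under CD reached 0.022 and for Apoc3 the change under WD reached 0.046 when libraries were scaled to the secreted hepatocyte proteins, so that the signs were then the same.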

How the results depend on the processing

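No paired analysis was possible because each group had 1 library and the labels give no replicate numbers. Other pseudocounts (1, 0.01 or none) changed the sign of 0 of 120 member changes, and 5 other scalings changed 14 of 200. Rescaling to equal sums gave member medians of -0.11 (CD+7KC relative to CD), -0.060 (WD+7KC relative to WD), 0.11 (WD relative to CD) and 0.21 (WD+7KC relative to CD+7KC), and 1 member past a log2 fold change of 1 in the last. The medians over all genes were then 0.034, 0.21, 0.040 and 0.20 in the same order. Rescaling without the 20 highest genes gave -0.10 (WD+7KC relative to WD), 0.12 (WD relative to CD) and 0.20 (WD+7KC relative to CD+7KC), and again 1 member past 1 in the last. Upper quartile scaling gave -0.24 (WD+7KC relative to WD) and 0.035 (WD+7KC relative to CD+7KC). Scaling to the secreted hepatocyte proteins gave 0.014, -0.025 and 0.0043 in the first 3 of these comparisons. The threshold of 1.5-fold raised the members counted from 0 to 2, 1 and 2 in the first 3 comparisons by its own construction. For the other settings the cause was not tested. The share of all genes past 1 depended on the level: among genes with at least 10 FPKM it was 1.18%, 1.43%, 2.93% and 5.50%, and among those with at least 100 FPKM 1.71%, 1.25%, 4.32% and 6.71%. Both sets include microRNA entries with extreme changes, such as Mir677, which count towards these shares. Counting error was small at this depth, and the spread between mice is unknown for every value.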
